A study of Mus musculus with 4 samples.

Results

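The early B-cell factor (EBF) family of the mouse has 4 genes, Ebf1, Ebf2, Ebf3 and Ebf4, and their levels were compared at E13.5 between WT (wildtype) retinas and mutant retinas of the genotype Nrf1 f/f;Six3-Cre. The 4 genes were taken by name from 24062 genes counted by RNA-seq, and all 4 had enough reads to be tested. There were 2 WT and 2 mutant libraries of total RNA, each from retinas of several littermates on a mixed C57BL/6 and 129 background, pooled by genotype. The mutant libraries, labelled Nrf1-CKO, carry floxed alleles of Nrf1, which encodes a transcription factor of mitochondrial and metabolic genes, and the Six3-Cre transgene, which deletes Nrf1 in retinal progenitor cells starting in the central retina. The labels do not say how complete the deletion was. By immunostaining of E13.5 sections, the study reports a complete loss of Nrf1 protein in the central mutant retina. The WT libraries are labelled only as wild type, and a Six3-Cre transgene without the floxed allele was not among the groups.

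EBF proteins are transcription factors that bind DNA as dimers through a zinc-coordinating domain at the amino end and a helix-loop-helix region. EBF1 is best known for commitment of lymphoid progenitors to the B lineage, and EBF2 for brown fat identity, and members also act in olfactory neurons and in migrating or differentiating neurons of the brain. In the embryonic retina they appear in cells that have left the cell cycle, mainly retinal ganglion cells (RGCs), the first neurons of the retina, and in some amacrine and horizontal cells. They act there downstream of proneural factors such as Atoh7.

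The 4 genes lie on 4 chromosomes in GRCm38, the assembly also called mm10. Ebf1 spans 390775 bp of chromosome 11 from 44617317 to 45008091 on the plus strand. Ebf2 spans 197627 bp of chromosome 14 from 67233292 to 67430918, also on the plus strand. Ebf3 lies on the minus strand of chromosome 7 from 137193673 to 137314445, and Ebf4, the most compact, on the plus strand of chromosome 2 from 130295169 to 130370481. The longest annotated transcripts have 16, 17, 16 and 18 exons in the order Ebf1 to Ebf4.

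RefSeq start sites with an upstream window were found for 3 members, Ebf1, Ebf3 and Ebf4. The 250 bases before a start site are shown for these 3 because NRF1, the factor deleted in the mutant, binds GC-rich palindromes near start sites. Windows overlapping an annotated exon are left out, which removed 1 of the 2 windows of Ebf1. The sequences run 5′ to 3′ along the gene, from RefSeq on GRCm38.p6. Capitals mark matches to TGCGCA, an NRF1 half-site, to GCATGCGC, most of the NRF1 palindrome, or to CCCNNGGG, the core that EBF proteins bind. Both strands were searched, and the end of GCATGCGC overlaps the half-site.
Ebf1, chr11:44619978-44620227, plus strand, in an intron of the annotated gene: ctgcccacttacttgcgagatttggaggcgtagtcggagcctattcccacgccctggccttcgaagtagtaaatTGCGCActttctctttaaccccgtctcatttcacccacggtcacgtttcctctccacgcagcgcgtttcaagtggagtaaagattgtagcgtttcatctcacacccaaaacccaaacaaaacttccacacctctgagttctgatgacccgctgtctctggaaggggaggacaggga
Ebf3, chr7:137314446-137314695, minus strand, directly before the annotated gene: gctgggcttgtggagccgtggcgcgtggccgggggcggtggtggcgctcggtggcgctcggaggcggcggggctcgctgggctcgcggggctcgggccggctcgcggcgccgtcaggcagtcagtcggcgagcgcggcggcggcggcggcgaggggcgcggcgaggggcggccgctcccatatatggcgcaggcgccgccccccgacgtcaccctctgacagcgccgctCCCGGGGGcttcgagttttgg
Ebf4, chr2:130295689-130295938, plus strand, in an intron of 1 isoform and before the first exon of others: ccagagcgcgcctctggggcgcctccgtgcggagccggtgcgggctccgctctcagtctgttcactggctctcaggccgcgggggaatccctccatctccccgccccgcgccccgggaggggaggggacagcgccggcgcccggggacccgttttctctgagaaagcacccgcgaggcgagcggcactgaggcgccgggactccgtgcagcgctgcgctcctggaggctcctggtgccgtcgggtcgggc

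The Ebf1 window held 1 match to TGCGCA, which began 176 bases before the start site. The Ebf3 window held 1 match to the EBF core, CCCGGGGG, 21 bases before the start site, and the Ebf4 window held none of the motifs. Of 32817 RefSeq windows of the same length, 6.42% held TGCGCA, 2.25% held GCATGCGC and 11.8% held CCCNNGGG. Ebf3 and Ebf4 had GC contents of 80.0% and 75.2% and Ebf1 of 52.0%, against a median of 52.4% over all windows. Among the 3035 windows with at least 70% GC, 31.1% held the EBF core and 11.5% the half-site. These matches describe letters in the windows, and binding was not measured in these data.

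Ebf3, Ebf1 and Ebf2 fell in the mutant retinas, and Ebf4 did not pass the test. Ebf3 fell to 30.2% ± 7.45% of its WT mean (SD, n = 2), Ebf1 to 34% ± 9.25% and Ebf2 to 52.7% ± 22.2%. Ebf4 was at 86.4% ± 2.39%. A gene was called with edgeR's quasi-likelihood test where it changed by 1.4-fold or more with an adjusted p (Benjamini-Hochberg over all tested genes) up to 0.2, both limits taken from the study's methods. So 3 of 4 members were called lower and 0 higher, where 8.04% of all 15762 tested genes were called lower and 12.8% higher. In all 4 members both mutant libraries lay below both WT libraries, an arrangement found for 31.6% of tested genes. Ebf1 and Ebf3 stand in a list of reduced RGC genes that the study chose on these same libraries, so their decrease is not independent evidence. In RNA from whole retinas, fewer cells of a type and less RNA per cell cannot be told apart.

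Ebf3, the most abundant member, had 15679 reads in WT replicate 1, 14517 in WT replicate 2, 5529 in mutant replicate 1 and 3872 in mutant replicate 2. On the CPM scale, which divides reads by library size with TMM factors, these were 179, 196, 66.6 and 46.8. The lowest WT value was 2.69 times the highest mutant value, whereas the mutant libraries differed by 1.42 times and the WT ones by 1.09 times. The mean went from 187 ± 11.8 to 56.7 ± 14 CPM (SD, n = 2), a log2 fold change of -1.73 (SE 0.15, 95% interval -2.06 to -1.39, edgeR adjusted p = 0.000152). Only 1.31% of tested genes had a lower fold change.

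Ebf1 had 7637 and 6891 reads in the WT and 3033 and 2046 in the mutant libraries, or 87.2, 92.9, 36.5 and 24.7 CPM. The WT libraries were close to each other, and the second mutant library was the lowest of all. The mean went from 90.1 ± 4.03 to 30.6 ± 8.33 CPM (SD, n = 2), a log2 fold change of -1.56 (SE 0.16, 95% interval -1.91 to -1.20, edgeR adjusted p = 0.000268). The gap between the genotypes, 2.39 times from the lowest WT to the highest mutant value, exceeded the 1.48 times between the mutant libraries.

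Ebf2 was far scarcer, with 441 and 352 reads in the WT and 278 and 150 in the mutant libraries, or 5.04, 4.75, 3.35 and 1.81 CPM. The WT libraries differed by 1.06 times and the mutant libraries by 1.85 times, more than the 1.42 times that separated the genotypes. The mean went from 4.89 ± 0.205 to 2.58 ± 1.08 CPM (SD, n = 2), a log2 fold change of -0.92 (SE 0.29, 95% interval -1.58 to -0.27, edgeR adjusted p = 0.05). This size rested on the mutant libraries, since it was -1.43 without mutant replicate 1 and -0.55 without mutant replicate 2. The call was lost when edgeR's glmTreat tested the fold itself against 1.4 (adjusted p = 0.257). On the authors' normalized log2 values the change was -0.43 (limma adjusted p = 0.0288), smaller than 1.4-fold. The lowest of these values over all genes was 8.1261, and the part of this floor in the smaller change was not tested.

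Ebf4, the least studied member, had 861 and 852 reads in the WT and 780 and 747 in the mutant libraries, or 9.83, 11.5, 9.39 and 9.03 CPM. The genotypes did not overlap, but the lowest WT value was only 1.05 times the highest mutant value. The log2 fold change was -0.21 (SE 0.14, 95% interval -0.53 to 0.10, edgeR adjusted p = 0.326). A decrease of 1.4-fold lay inside this interval. Ebf4 had more reads than Ebf2 in every library.

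**Figure D1:**
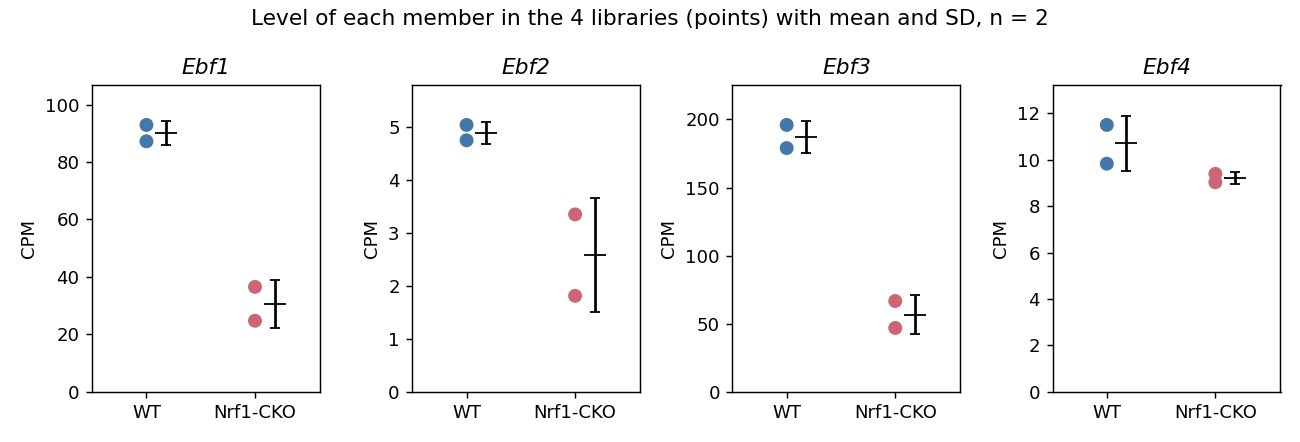
Level of each member in CPM (vertical axes, each from 0) in the 2 WT (blue) and 2 Nrf1-CKO (red) libraries. Points are libraries, and the black bars give the mean and SD (n = 2). Ebf1 and Ebf3 show a wide gap between genotypes, Ebf2 a gap smaller than the spread of its mutant libraries, and Ebf4 a gap of 1.05 times.

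Levels of different genes were compared per length, as RPKM, that is CPM per kilobase of the union of annotated exons. In WT retinas the order was Ebf3 at 20.3 ± 1.28, Ebf1 at 9.23 ± 0.413, Ebf4 at 3.29 ± 0.362 and Ebf2 at 0.706 ± 0.0296 RPKM (SD, n = 2), and no neighbours in this order overlapped. In the mutant, Ebf3 remained the highest at 6.14 ± 1.51 and Ebf2 the lowest at 0.372 ± 0.156 RPKM. Ebf1 at 3.14 ± 0.854 and Ebf4 at 2.85 ± 0.0787 RPKM did not differ beyond their spread there on this length. Ebf1 was the higher of this pair in mutant replicate 1, at 3.74 against 2.9 RPKM, and the lower in mutant replicate 2, at 2.53 against 2.79 RPKM. This order depended on the length: per base of the longest transcript, Ebf1 was above Ebf4 in both mutant libraries, with 26.3% against 13.6% and 24.5% against 17.9% of the summed family level.

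The summed family level was 32.1 and 35 RPKM in the WT and 14.3 and 10.7 RPKM in the mutant libraries. Ebf3 made up 60.4% and 60.7% of this sum in the WT and 50.3% and 47.6% in the mutant libraries. Ebf1 supplied 27.8% and 27.2% in the WT and 26.1% and 23.8% in the mutant libraries. Ebf4 supplied 9.46% and 10.2% in the WT and 20.2% and 26.2% in the mutant libraries, while its own level was not called changed. With the longest transcript as the length, the share of Ebf4 was 6.03% and 6.48% in the WT and 13.6% and 17.9% in the mutant libraries, so the absolute share depends on the length used and its direction did not.

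**Figure D2:**
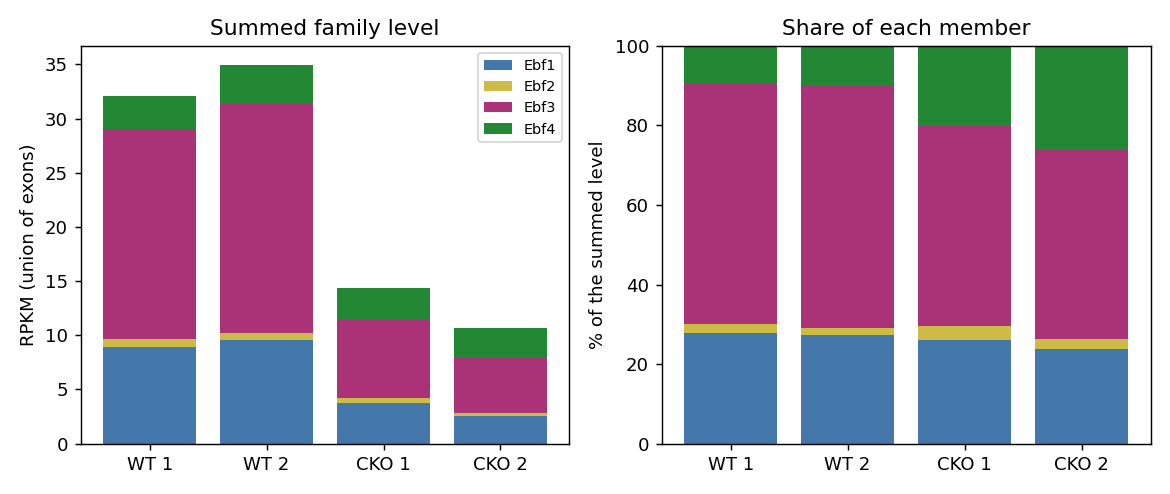
Summed RPKM of the 4 Ebf genes in each library (left) and the percent of that sum that each gene supplied (right). The sum was 32.1 and 35 RPKM in the WT and 14.3 and 10.7 RPKM in the Nrf1-CKO (CKO) libraries, and the Ebf4 share was higher in both mutant libraries.

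Ratios of reads within a library do not depend on scaling between libraries. The log2 ratio of Ebf1 to Ebf3 was -1.04 and -1.07 in the WT and -0.87 and -0.92 in the mutant libraries, a difference of 0.16. This was the smallest shift of the 6 pairs of members. The log2 ratio of Ebf3 to Ebf4 went from 4.19 and 4.09 to 2.83 and 2.37, a difference of -1.54, and that of Ebf1 to Ebf4 differed by -1.38. Ebf2 relative to Ebf3 differed by 0.76, Ebf1 relative to Ebf2 by -0.59 and Ebf2 relative to Ebf4 by -0.78. All 6 pairs had genotypes that did not overlap, each with p = 0.333 in a two-sided exact permutation test (adjusted p = 0.333 over 6 pairs). With 2 libraries against 2, this is the smallest p that the design allows.

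Members were also set against 4 genes of young retinal neurons. Pou4f2 and Isl1 encode transcription factors required for RGC development, Sox11 a factor of newly generated neurons, and Tubb3 a neuronal tubulin. Pou4f2, Isl1 and Tubb3 were themselves called lower, at log2 fold changes of -0.97, -1.37 and -1.26, while Sox11 was at -0.29. Those called lower stand in the study's list of reduced RGC genes, chosen on these libraries. Each ratio therefore also moves with its reference gene. The log2 ratio of Ebf3 to Pou4f2 was 0.08 and 0.18 in the WT and -0.51 and -0.77 in the mutant libraries. Ebf3 to Isl1 shifted less, from 0.29 in both WT libraries to -0.03 and -0.11. For Ebf1 the differences, mutant minus WT, were -0.61 relative to Pou4f2, -0.20 relative to Isl1, -0.32 relative to Tubb3 and -1.29 relative to Sox11. Ebf1 and Ebf3 were thus lower per read of each of the 4 genes.

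Ebf2 relative to Pou4f2 overlapped between genotypes, with a log2 ratio of -5.07 and -5.19 in the WT and -4.83 and -5.46 in the mutant libraries. Ebf2 relative to Tubb3 also overlapped, and relative to Isl1 it differed by 0.39. Relative to Sox11 it went from -7.62 and -7.74 to -7.98 and -8.77, a difference of -0.70 in the same direction as those of Ebf1 and Ebf3. Ebf4 was higher relative to Pou4f2, Isl1 and Tubb3, with differences of 0.77, 1.17 and 1.06. Relative to Sox11 it overlapped, with a difference of 0.09. Of the 16 ratios, 13 had genotypes that did not overlap, each with p = 0.333 (adjusted p = 0.41 over 16 ratios) in the two-sided exact permutation test, and none could reach the threshold in this design.

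**Figure D3:**
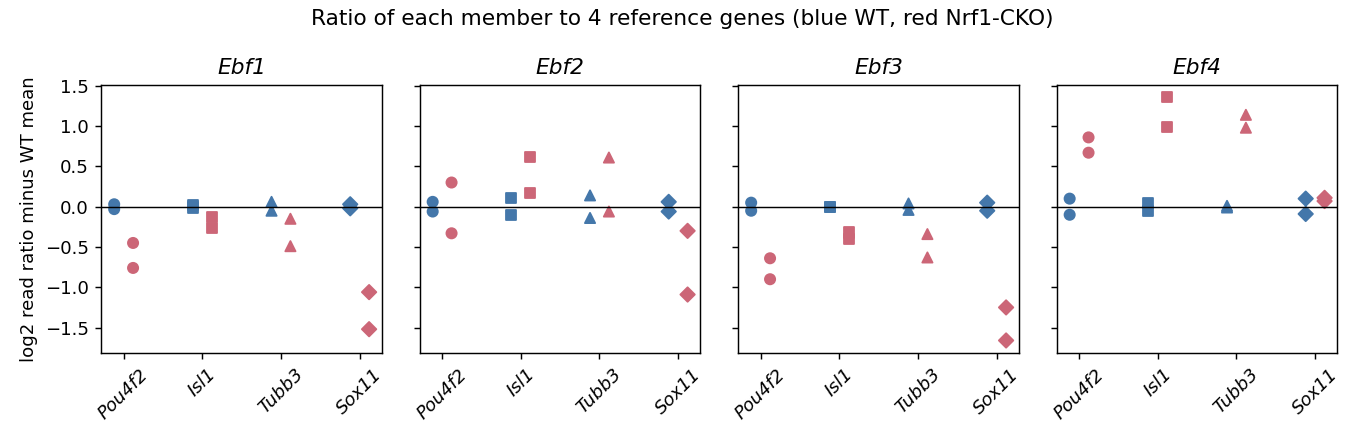
Log2 ratio of the reads of each member to those of Pou4f2, Isl1, Tubb3 and Sox11 in each library, minus the mean of the WT libraries (blue WT, red Nrf1-CKO). Ebf1 and Ebf3 lie below the WT libraries for all 4 reference genes, and Ebf4 lies above them for Pou4f2, Isl1 and Tubb3.

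Proteins that work with EBF factors did not pass the thresholds. Of 6 partner genes, 0 were called lower and 0 higher by edgeR, and their median log2 fold change was 0.00, against 0.0007 over all tested genes. Zfp423, which encodes a zinc-finger protein that binds EBF1 and restrains it, had 11566 and 11016 reads in the WT and 14152 and 14815 in the mutant libraries, a log2 fold change of 0.32 (edgeR adjusted p = 0.0272) and under 1.4-fold. Its relative Zfp521 was at -0.17 and overlapped. Smarca4 and Chd4, catalytic subunits of chromatin remodelling complexes, were at -0.21 and -0.05. Cnot3, of the CCR4-NOT complex, was at 0.11 and Tet2, a DNA demethylation enzyme, at 0.05. At an unadjusted p under 0.05 there were 2 of the 6, Zfp423 and Smarca4, where 34.8% of all tested genes reached it in either direction, and DESeq2 and limma also called 0.

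Proneural basic helix-loop-helix genes, which lie upstream of Ebf genes in neuronal differentiation, had smaller fold changes than Ebf1 and Ebf3. Of 7 such genes 5 were tested, with 1 called lower and 0 higher, and their median change was -0.10 on the log2 scale. Neurod4 was lower, at -0.50 (edgeR adjusted p = 0.0112). The count of 1 called gene became 0 without mutant replicate 2, under upper-quartile factors, under glmTreat and on the normalized values, and with each library left out the median lay between -0.23 and -0.02. Atoh7, which confers competence to become an RGC, had 8203 and 9668 reads in the WT and 7183 and 7953 in the mutant libraries, a log2 fold change of -0.29 with overlapping CPM. Neurog2, Neurod1 and Olig2 were at -0.10, -0.06 and -0.07. Neurod2 was at 0 reads in every library and Neurod6 at most at 3. The difference between these genes and the Ebf genes was not tested.

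Among 26 regulators of RGC development other than the Ebf genes, 19 were called lower and 1 higher, and the median change was -0.98 on the log2 scale. The count higher was 0 without WT replicate 1 or mutant replicate 2 and 2 without WT replicate 2. Ebf1 and Ebf3 lay beyond that median, Ebf2 near it and Ebf4 above it. Pou4f2 was at -0.97 (edgeR adjusted p = 0.000252) and Isl1 at -1.37 (edgeR adjusted p = 0.000233), and Sox11 at -0.29 was under 1.4-fold. The called genes with the largest fold changes were Pou4f3 at -3.48, Irx4 at -3.10, Myt1l at -2.51 and Onecut3 at -2.16. Most of the regulators called lower stand in the study's list of reduced RGC genes, chosen on these same libraries. This count and median are therefore not independent evidence.

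**Figure D4:**
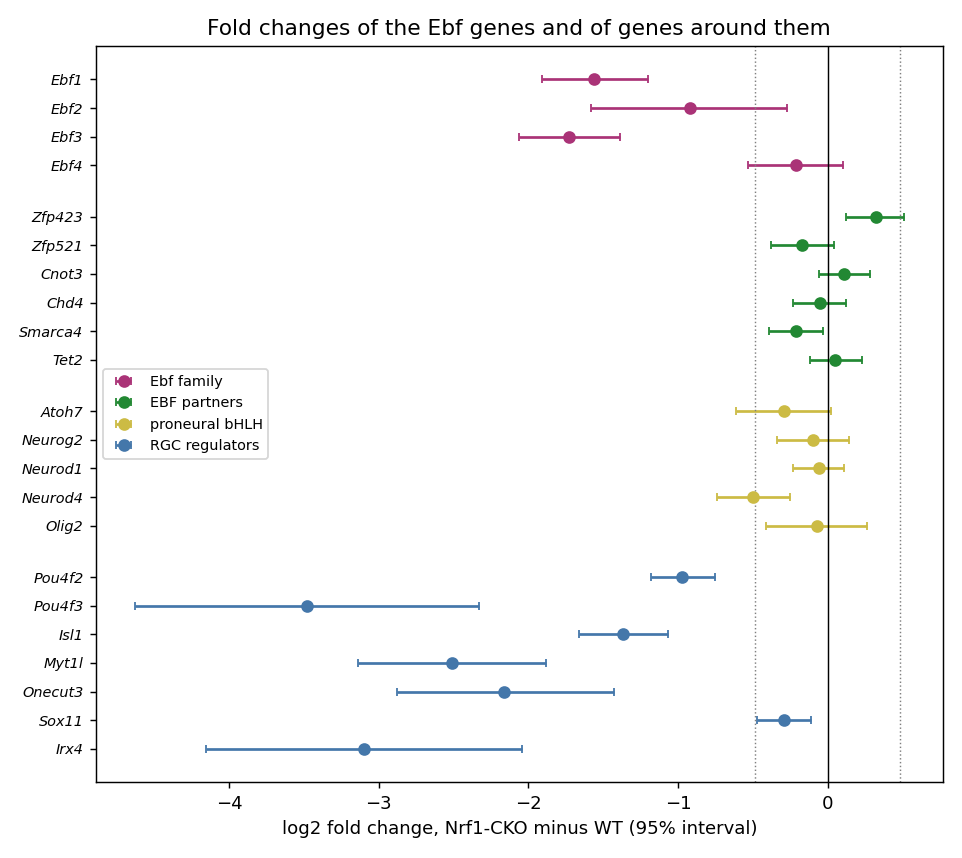
Log2 fold change (Nrf1-CKO minus WT, horizontal axis) with its 95% interval for the 4 Ebf genes, the tested genes of 6 EBF partners and of the proneural list, and 7 of 26 RGC regulators (the 4 with the largest called changes and Pou4f2, Isl1 and Sox11). Dotted lines mark a change of 1.4-fold. Ebf1 and Ebf3 lie at -1.56 and -1.73, below every partner and proneural gene shown.

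RGC markers were lower alongside Ebf1 and Ebf3. Of 20 such markers, 18 were lower and 1 higher, and their median log2 fold change was -1.63. Their summed level was 3986 and 4593 CPM in the WT and 1702 and 1347 CPM in the mutant libraries. Most of the lower markers stand in the study's list of reduced RGC genes, chosen on these same libraries. Their count and median are therefore not independent evidence. The marker called higher, Thy1, had 1 read in each WT library and 11 and 25 in the mutant, and its call was lost without mutant replicate 2. Markers of progenitors had 3 of 13 lower and a median of -0.12, those of photoreceptor precursors 2 of 6 lower and -0.40, and those of amacrine and horizontal cells 2 lower and 2 higher of 9 tested and -0.23. Bipolar markers, which are scarce at this age, had 2 lower and 1 higher of 4 tested and a median of -0.89. Of the lower genes, Isl2 at -1.87, is better known as an RGC transcription factor, and the median is the midpoint of Isl2 and Prkca at 0.09. That median had no stable direction, at -0.05 without WT replicate 1, 0.24 without WT replicate 2, -0.35 without mutant replicate 1 and 0.08 with no filter on low counts. The gene called higher was lost without WT replicate 1 or mutant replicate 1. For photoreceptor precursors 1 gene was lower without WT replicate 1 or without mutant replicate 2. For amacrine and horizontal cells 1 was lower without any of WT replicate 1, WT replicate 2 or mutant replicate 2, and the count higher was 1 without WT replicate 2 and 0 without mutant replicate 1. Their median was -0.14 without WT replicate 2. Of the 2 higher genes, Prox1 at 0.73 is also in the lens list and is counted in both. On the authors' normalized values the medians were -1.47 for RGC markers, -0.11 for progenitors and -0.22 for photoreceptor precursors. They were -0.15 for amacrine and horizontal cells and -0.30 for bipolar markers. For photoreceptor precursors the count lower was 1 on those values, under glmTreat and under upper-quartile factors. The part of these cell types in the Ebf decreases was not tested.

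Many markers of tissue around the neural retina were higher in the mutant libraries, and Ebf genes are also active in some of these tissues, such as periocular mesenchyme. Summed lens markers were 167 and 411 CPM in the WT and 7913 and 3243 CPM in the mutant libraries (10 of 10 tested higher, and Dnase2b at 0). Macrophage markers went from 84.4 and 78.8 to 263 and 315 CPM (10 of 10 higher) and pigment epithelium from 235 and 169 to 425 and 450 CPM (7 of 8 higher). Periocular mesenchyme went from 297 and 214 to 452 and 384 CPM (7 of 12 higher) and pericytes from 193 and 203 to 326 and 322 CPM (7 higher and 1 lower of 9). Endothelium was at 280, 282, 310 and 306 CPM in the same order (7 higher and 1 lower of 8). The lower gene, Kdr, supplied 200, 211, 144 and 137 CPM of these sums. Erythroid markers were at 550, 650, 712 and 713 CPM (2 of 5 tested higher, with Hba-a1 and Hbb-bt at 0). Some counts rested on 1 library. For mesenchyme, 4 genes were higher without WT replicate 2, at a median of 0.43. For erythroid cells, 0 were higher without WT replicate 1 and 1 without each of the other libraries. The median log2 fold changes of these lists were 4.42 for lens, 1.96 for macrophages, 1.02 for pigment epithelium, 0.74 for mesenchyme, 0.72 for pericytes, 1.16 for endothelium and 0.60 for erythroid cells. The erythroid median was 0.39 without WT replicate 1. On the authors' normalized values the medians were 2.94 for lens, 0.76 for endothelium, 0.44 for mesenchyme and 0.22 for erythroid cells. With all of these markers, and the olfactory and B lineage lists, left out of the scaling, Ebf1 was at -1.56, Ebf2 at -0.92, Ebf3 at -1.72 and Ebf4 at -0.21.

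The 2 tissues for which the family is named showed little signal. The B lineage list summed to 0.948 and 2.01 CPM in the WT and 3.06 and 3.22 CPM in the mutant libraries, with 4 of 10 genes tested at a median log2 fold change of 2.04. Of these, Cd79b, Blnk and Cd22 were higher, all at 138 reads or fewer. Without mutant replicate 1, 1 gene was higher at a median of 0.73, and without WT replicate 1, 1 gene was lower and the median was 0.55. Pax5, a partner of EBF1 in B cells, had at most 12 reads in a library. Olfactory epithelium markers summed to 32, 34.6, 34.9 and 37.3 CPM in the same order, with a median of 0.04 and 1 of 5 tested lower, Gnal at -0.56 (edgeR adjusted p = 0.0441). That count became 0 without mutant replicate 2, and 1 gene was called higher without mutant replicate 1.

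The genes whose profile over the 4 libraries was most like that of each member were found by the distance between centred log2 CPM, among 11325 genes of at least 5 CPM for Ebf1. For Ebf1 these were Fam184b, Rtn1, L1cam, Scn3a and Scd1, at distances of 0.05 to 0.10. Rtn1 and L1cam encode a reticulon and an axonal adhesion molecule, and Scn3a a neuronal sodium channel. For Ebf3 they were Crabp1, Unc13a, Stmn2, Nnat and Mtus2, at 0.07 to 0.08. Crabp1 binds retinoic acid, and Stmn2 is a microtubule regulator of growth cones. Ebf1 was the gene of rank 19 for Ebf3, and Ebf3 that of rank 22 for Ebf1, both at a distance of 0.17.

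The closest profiles to Ebf2 were more distant, with Dnajc6, Bnip3, Lrp1b, Fam78b and Onecut2 at 0.22 to 0.27. Ebf1 was at rank 425 there and Ebf3 at rank 993. Ebf4 was closest to Fam115c, Rhobtb1, Lrp3, Rpl38 and Zfp846, at 0.01 to 0.04, and Ebf1 and Ebf3 were at ranks 10994 and 11084 of its list. Rpl38 belongs to a family with many near-identical copies, so its count is uncertain. With 4 libraries, these distances describe the samples and carry no test.

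Genes next to the members mostly did not follow them. Rnf145, 51797 bp from Ebf1, was at -0.23, and Gm12159 on the other side had 0 reads in every library. The neighbours of Ebf2, Ppp2r2a and Cdca2, were at 0.14 and -0.04, and those of Ebf3, Mgmt and 9430038I01Rik, at -0.24 and -0.07. None of these passed the thresholds. Beside Ebf4, Idh3b was at -0.06, while Cpxm1, 20294 bp away, was higher, with 1435 and 1107 reads in the WT and 2758 and 2630 in the mutant libraries and a log2 fold change of 1.05 (SE 0.10, edgeR adjusted p = 0.000236).

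Reads of the 4 members could be told apart. Coding sequences of Ebf1 and Ebf3 were 79.5% identical, the most of any pair, and those of Ebf2 and Ebf4 71.2%, the least. The longest stretch shared by transcripts of 2 members was 27 bp, between Ebf3 and Ebf4, and no pair shared a stretch of 100 bp, the length of a read. Exons of antisense genes overlap exons of Ebf2 over 424 bp and of Ebf3 over 355 bp, and whether counting used strand is not given in the sources used here. Those antisense genes were not analysed here. The other antisense genes at these loci that were counted had at most 9 reads in a library.

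Between 74577660 and 85933945 reads fell on genes in each library, and the biological coefficient of variation over all genes was 12%. Nrf1 itself had 9052 and 7789 reads in the WT and 8594 and 8284 in the mutant libraries, with a log2 fold change of -0.03. The conditional allele loses a single short exon, so a count over the whole gene does not check the genotype labels. In CPM, mutant replicate 1 was 1.48 times mutant replicate 2 for Ebf1, 1.85 for Ebf2, 1.42 for Ebf3 and 1.04 for Ebf4. Summed RGC markers had the same order, at 1702 and 1347 CPM, and lens markers were also higher in replicate 1. How many tested genes had this order was not computed, so it cannot be called a trait of the family.

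**Figure D5:**
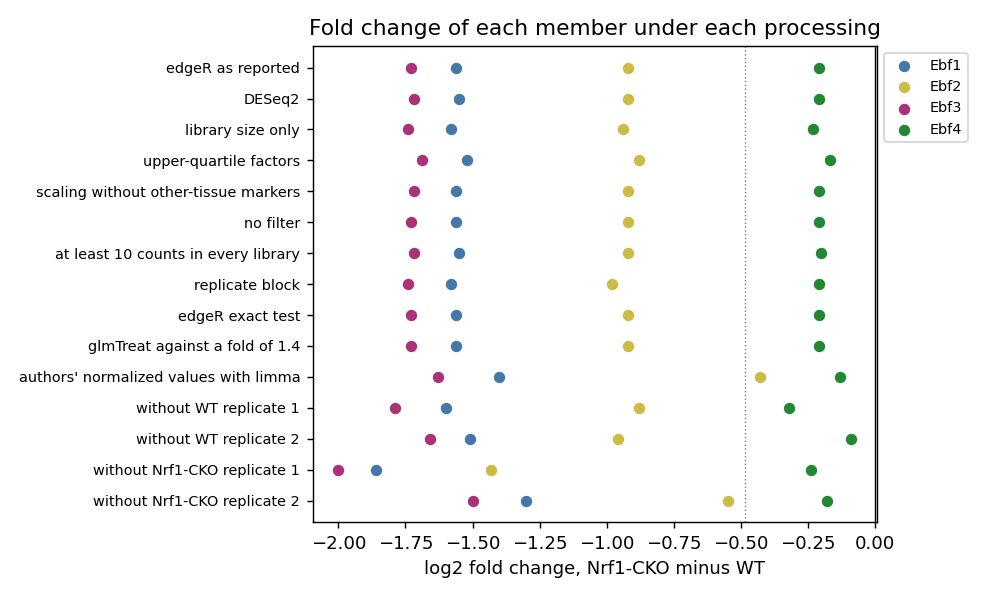
Log2 fold change (Nrf1-CKO minus WT, horizontal axis) of the 4 members under the reported edgeR test and each alternative, including each library left out in turn. The dotted line marks a decrease of 1.4-fold. Ebf1 lay between -1.86 and -1.30 and Ebf3 between -2.00 and -1.50 in all of them, Ebf2 crossed the line on the authors' normalized values, and Ebf4 stayed between -0.32 and -0.09.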

How the data were processed

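Total RNA of E13.5 retinas was sequenced in 2 WT and 2 mutant (Nrf1-CKO) libraries, grouped by the labels. The authors aligned reads to mm10 with Tophat, counted them per gene with HTSeq and deposited the counts without normalization. They also deposited normalized values on a log2 scale, whose making is not described in the sources used here. The submitters' processing notes also name DESeq and limma, with no role. Of all count entries, 74.0% to 75.0% were in 5 summary rows, which stayed out of library sizes and tests. PCR copies are not independent molecules, and intervals reflect sampling of reads and library-to-library spread only. Labels do not name separate pools beyond the replicate number, so p-values measure the spread between these libraries.

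Genes were filtered with edgeR's filterByExpr (minimum count 10), scaled with TMM and tested by quasi-likelihood (edgeR 4.0.16, R 4.3.3) with Benjamini-Hochberg adjustment over 15762 genes. The script was tested on simulated data. The study names Cuffdiff, which needs aligned reads not used here. Ratios within libraries were tested by exact permutation. Exons come from GENCODE on GRCm38 and upstream windows from RefSeq. Alternatives included DESeq2 1.42.0, limma 3.58.1, other scalings and filters, the replicate block and each library left out. Replicate libraries were distinct, since chi-square per gene between them was 47.6 (WT) and 59.1 (mutant).

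The members, gene lists and tests were chosen with earlier results of these data known. Genes named are the members, Nrf1, reference genes, all partner and the other listed proneural genes, up to 4 of the largest called changes per list, the nearest genes on each side of a member, and the 5 closest profiles of each member with at least 5 CPM. Further genes named from a list (Pax5, Prkca, Kdr and those at or near 0) were chosen after their values were seen. Results of 1 gene were left out of the lists and are not reported.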

Additional observations from a re-analysis of the deposited data

How the results depend on the processing

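Ebf1 and Ebf3 were called lower and Ebf4 was not called in every alternative run. Ebf2 lost its call in 2 of them, with a log2 fold change of -0.92 under edgeR's glmTreat against a fold of 1.4 (adjusted p = 0.257) and of -0.43 on the authors' normalized values with limma (adjusted p = 0.0288). The count of members called lower was then 2 in place of 3. The count of all genes called lower was 743 under glmTreat and 723 with limma, against 1268, and the count called higher was 1188 and 945, against 2024. glmTreat asks for a fold beyond the threshold by construction, and the cause of the difference on the normalized values was not tested. With each library left out in turn, log2 fold changes lay from -1.86 to -1.30 for Ebf1, -1.43 to -0.55 for Ebf2, -2.00 to -1.50 for Ebf3 and -0.32 to -0.09 for Ebf4, and an arm left with 1 library was assumed to vary like the other. Deviations of same-numbered libraries had a correlation of -0.01 over the tested genes. With 2 libraries per genotype, this cannot decide whether same-numbered libraries were collected or prepared together. With the replicate block, the values were -1.58 for Ebf1, -0.98 for Ebf2, -1.74 for Ebf3 and -0.21 for Ebf4, with 1256 genes lower and 1970 higher, and no member's call changed. Under upper-quartile factors 1156 genes were lower and 2167 higher. At an adjusted p of at most 0.05, 1039 genes were lower and 1445 higher. Depth limits Ebf2 most, with 150 reads in its lowest library.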
